A study of Mus musculus with 3 samples.

Results

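The RNA of 10 genes that write, maintain or remove DNA methylation was compared between normal and leukemic bone marrow cells. The genes were chosen by name (Dnmt1, Dnmt3a, Dnmt3b, Uhrf1, Tet1, Tet2, Tet3, Idh1, Idh2 and Tdg) and matched by NCBI Gene ID, and all 10 of them were listed in every library, out of 16742 genes listed in any. RNA-seq was available for 3 libraries, 1 per condition, each made from 3 pooled mice that the labels give as C57BL/6 and 6 to 8 weeks old. The control library came from Lin- bone marrow cells of wild type mice, which remain after cells with mature lineage markers are removed. The TR1 and TR9 libraries came from GFP+ bone marrow cells of TBLR1-RARa mice, the third generation of leukemias that each began in a single mouse given transduced lin- cells. The fusion gene TBLR1-RARα (TR) and GFP were expressed from the same retroviral transcript, whereas the control cells were neither transduced nor transplanted. The isolation differed too, being a lineage depletion for the control cells and a GFP sort for the leukemic cells.

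Expected counts, which RSEM estimates for each gene, summed to between 5129662 and 5571409 per library. A gene was called downregulated or upregulated at a false discovery rate of at most 0.001 in an exact Poisson test and an absolute log2 ratio of FPKM (fragments per length of transcript and per library size) of at least 1. This test compares the reads of 2 libraries and not the conditions, since no condition had a second library. The intervals given are exact, at 95%, and cover counting error only. Those of log2 ratios between libraries come from counts over library totals. They leave out the transcript length that enters FPKM, so they can sit slightly off the FPKM ratio. FPKM scales each library by its total, and the median gene had a log2 ratio against control of −0.29 (TR1) or −0.12 (TR9). TMM scaling, which sets the bulk of genes level, moved each ratio against control up by 0.25 in TR1 and 0.11 in TR9. Rara, the mouse gene that matches part of the fusion, stood at 58.88 expected counts in control against 1167.89 (TR1) and 358.74 (TR9).

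Cell markers also separated the libraries. As a background for the counts below, 8.39% of all genes passed the rule as lower in both lines, and 5.67% as higher. All 15 erythroid genes fell in each line, and together they made up 5327 CPM (counts scaled to the library total) in control against 193 (TR1) and 168 (TR9). Alas2 and Hba-a2 were at 0 in both leukemia libraries. All 10 megakaryocyte genes were downregulated in both, from 1474 CPM to 13.9 and 12.0, with Pf4, Treml1 and Gp6 at 0 in both. Mast cell, basophil and eosinophil genes fell in 8 of 9 cases in both lines (2065 CPM in control against 88.7 and 94.2). The ninth, Cma1, had 1 count in control and 0 in both leukemias. In contrast, 10 of 13 granulocyte genes were upregulated in both, and their summed CPM was 7627 in control against 42370 (TR1) and 33580 (TR9). The 11 monocyte and macrophage genes, with none at 0, summed to 984, 2998 and 2452, of which 3 were upregulated and 5 downregulated in both. The 15 stem and progenitor genes summed to 997, 410 and 485, with 8 downregulated and 1 upregulated in both, and Hoxa9, Hoxa5, Hoxa7, Slamf1 and Mycn at 0 in both leukemias. The 9 T and NK cell genes summed to between 6.16 and 13.3 in every library. Of these 9, only Cd4 passed the rule, with 25 counts in control against 0 (TR1) and 3 (TR9). Zap70 and Ncr1 had only 3 and 8 counts in control and 0 in both leukemias. Log2 ratios were below 0 for 7 of the 9 in each line. Cd3d (0.10 in TR1, 0.33 in TR9) and Cd8a (1.30 and 2.04) went the other way without passing the rule. Igll1, a part of the pre-B cell receptor, had 2 counts in control against 63 (TR1) and 847 (TR9). The part of these cell types in the results below was not tested. In these bulk samples, fewer cells of a type and less RNA per cell cannot be told apart.

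In mammals, DNA methylation is placed mainly on cytosines of CpG dinucleotides. Dnmt3a and Dnmt3b set new methylation, and Dnmt1, brought to newly replicated DNA by Uhrf1, copies it to the daughter strand. Tet1, Tet2 and Tet3 are oxygenases that need iron and 2-oxoglutarate and that oxidize 5-methylcytosine, and Tdg, a DNA glycosylase, removes the more oxidized forms so that base excision repair can restore cytosine. Idh1 in the cytosol and Idh2 in mitochondria produce 2-oxoglutarate, and mutant forms of both make 2-hydroxyglutarate, an inhibitor of the Tet enzymes. DNMT3A, TET2, IDH1 and IDH2 are among the genes mutated in human acute myeloid leukemia. Here only RNA was measured, and neither mutations nor methylation of DNA were.

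Of the 10 genes, 4 were downregulated and 1 was upregulated in each leukemia line against control. Among all genes tested, 13% were downregulated and 8.09% upregulated in TR1, and 10.8% and 9.37% in TR9. Dnmt3a, Dnmt3b and Tet1 were downregulated and Tet2 was upregulated in both lines, whereas Idh1 was downregulated in TR1 and Idh2 in TR9. Over the whole series, 8.39% of genes were downregulated and 5.67% upregulated in both lines. The median log2 ratio of the 10 genes was −0.76 in TR1 and −0.89 in TR9, against the medians of −0.29 and −0.12 over all genes. TR1 and TR9 were compared with the same control library, so their ratios are not independent of each other. With TMM scaling, 3 genes were downregulated and 1 was upregulated in each line (all genes: 9.77% and 10.4% in TR1, 9.22% and 10.5% in TR9), because Idh1 in TR1 (−0.85) and Dnmt3b in TR9 (−0.94) no longer reached the fold of the rule.

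**Figure D1:**
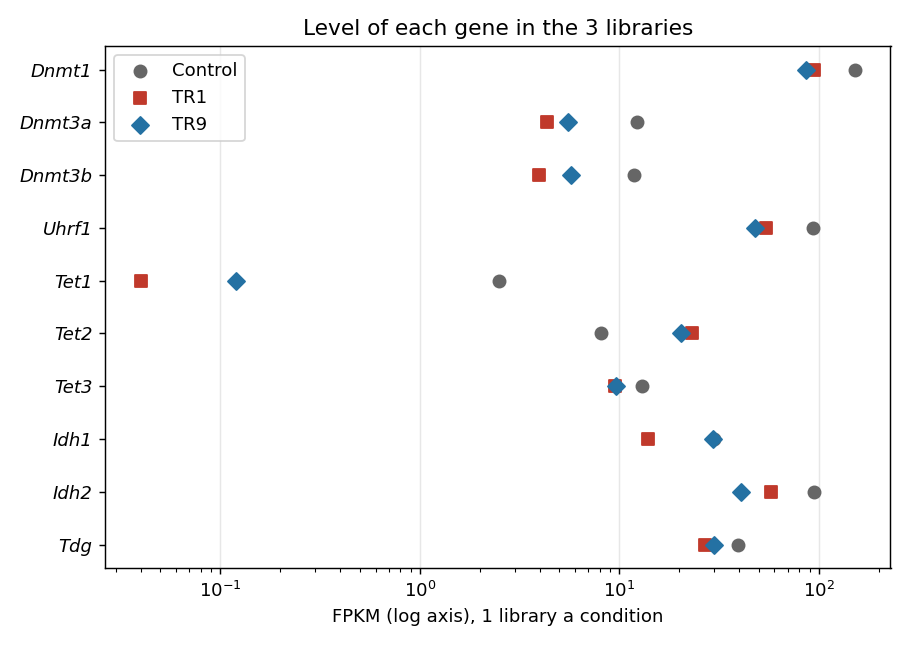
FPKM of the 10 genes (log axis) in the control, TR1 and TR9 libraries, 1 point per library. Tet2 is the gene with its lowest point in control, Tet1 spans the widest range (0.04 to 2.49 FPKM), and the control point of Idh1 lies behind that of TR9.

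The levels per length covered a wide range. In control, Dnmt1 was highest with 151.8 FPKM, above 97.3% of the listed genes, followed by Idh2 and Uhrf1 (94.95 and 93.65 FPKM, too close to order), Tdg (39.33) and Idh1 (29.77). Tet3, Dnmt3a and Dnmt3b lay close together at 13.06, 12.33 and 11.81 FPKM, and Tet2 (8.14) and Tet1 (2.49) were lowest. Dnmt1 was again highest and Tet1 lowest in TR1 and TR9. Tet2 moved from the ninth place in control to the fifth in TR1 and the sixth in TR9, ahead of Tet3 and of both Dnmt3 genes.

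Maintenance of methylation came first in level. Dnmt1, the maintenance methyltransferase, stood at 4469 expected counts in control against 2831 (TR1) and 2398 (TR9). Dnmt1 had log2 ratios of −0.69 (95% interval −0.75 to −0.61) for TR1 and −0.81 (−0.87 to −0.73) for TR9, so both leukemia libraries were low, at 94.25 and 86.63 FPKM, but under the fold of the rule. Uhrf1, which binds hemimethylated CpG and brings in Dnmt1, had 1826, 1074 and 881 counts. Its log2 ratio was −0.79 (−0.90 to −0.68) in TR1 and −0.96 (−1.07 to −0.84) in TR9, also short of the rule, and it passed only with TPM scaling, at −1.01 and −1.07. Both genes are known to be expressed with the S phase program, so the genes of that program are given beside them. Of 28 DNA replication genes, 15 (53.6%) were downregulated in TR1 and 15 in TR9, against 13% and 10.8% of all genes. Their median log2 ratio was −1.02 in each line. With TMM scaling 6 and 10 of the 28 (21.4% and 35.7%) remained downregulated, against 9.77% and 9.22% of all genes. Of 14 mitosis genes, 9 and 8 (64.3% and 57.1%) were downregulated, with medians of −1.23 and −1.05. Dnmt1 in both lines and Uhrf1 in TR1 were thus lower by less than the median replication gene. In TR9 the interval of Uhrf1 held that median, so the 2 could not be told apart.

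Promoter sequence was read for these genes because Dnmt1 and Uhrf1 moved together, by similar ratios in both lines. RefSeq (GRCm38.p6) gave 16 start sites for the 10 genes, and the 250 bases before each were searched on both strands. The build is that of the reference, since the labels name mm9 for the deposited values, which carry no coordinates. The letters TTTCGCGC, a form of the site bound by E2F factors, occurred before 1 start of Dnmt1 and 1 of Uhrf1 and before no start of the other genes, and in 0.256% of 32851 windows of all genes. The 30 bases around each match are shown 5′ to 3′ on the strand of the gene, with the matching letters in capitals.
Dnmt1, chr9:20952824-20952853, minus strand: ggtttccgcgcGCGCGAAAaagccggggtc
Uhrf1, chr17:56304117-56304146, plus strand: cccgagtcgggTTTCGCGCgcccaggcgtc
The match lay on the opposite strand 212 to 219 bases before a start of Dnmt1, overlapping an annotated UTR exon (GENCODE M21), and on the same strand 178 to 185 bases before a start of Uhrf1, outside annotated exons. With the related letters TTTCCCGC, TTTGGCGC and TTTGCCGC added, the windows found among the 10 genes were these same 2, against 1.86% of all windows. These 2 windows held 26 (Dnmt1) and 30 (Uhrf1) CpG, against a median of 6 over all windows. The shares of all windows were not matched for CpG, which the searched letters themselves contain. The letters AGGTCA, a single binding site of retinoic acid receptors, stood before a start of Tet1, Dnmt3a and Uhrf1 and in 14.0% of all windows. Direct repeats of AGGTCA spaced by 2 or 5 bases were found in none of the 16 windows. Such matches describe letters and say nothing of binding.

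Both de novo methyltransferases fell in both lines. Dnmt3a dropped from 651 expected counts in control to 238 (TR1) and 279 (TR9). Its level was 12.33 FPKM in control against 4.34 and 5.54 in the leukemias, with log2 ratios of −1.51 (−1.69 to −1.26) and −1.15 (−1.33 to −0.92). Dnmt3b had 271, 89 and 120 counts, or 11.81, 3.94 and 5.73 FPKM. Its log2 ratio was −1.58 (−1.99 to −1.28) in TR1 and −1.04 (−1.40 to −0.76) in TR9, and the TR9 call ended with TMM or median of ratios scaling and with a pseudocount of 1 FPKM. Control was the high library for both genes, and in the direct comparison of TR9 with TR1 neither passed the rule (log2 ratios of 0.35 for Dnmt3a and 0.54 for Dnmt3b). The quotient of the 2 genes was also compared. The count of Dnmt3a per count of Dnmt3b was 2.40 in control against 2.67 (TR1) and 2.33 (TR9), and the log2 ratio between lines of that quotient was 0.15 (−0.26 to 0.58) for TR1 and −0.05 (−0.43 to 0.34) for TR9 against control, so a change in either direction within those bounds could not be told from none. The mean transcript length that RSEM assigned to Dnmt3a was 9502 bases in control and 9689 in both leukemias, and that of Dnmt3b was 4149, 4014 and 4050. RSEM listed 3 transcripts for Dnmt3a and 9 for Dnmt3b.

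Dnmt3l, a cofactor of Dnmt3a and Dnmt3b that has no catalytic activity and is best known from germ cells, went the other way. It was not listed in control and had 14 expected counts in TR1 and 54 in TR9. Since control was at 0, its log2 ratio has only a lower limit, which was 1.71 for TR1 and 3.92 for TR9 (exact, at 95%). Its level in TR9 was 6.33 FPKM, too close to those of Dnmt3a and Dnmt3b (5.54 and 5.73) to order at 54 counts. Dnmt3l was also higher in TR9 than in TR1. It overlaps Aire on the opposite strand in the annotation, and Aire had 1 count in control and 0 in both leukemias.

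**Figure D2:**
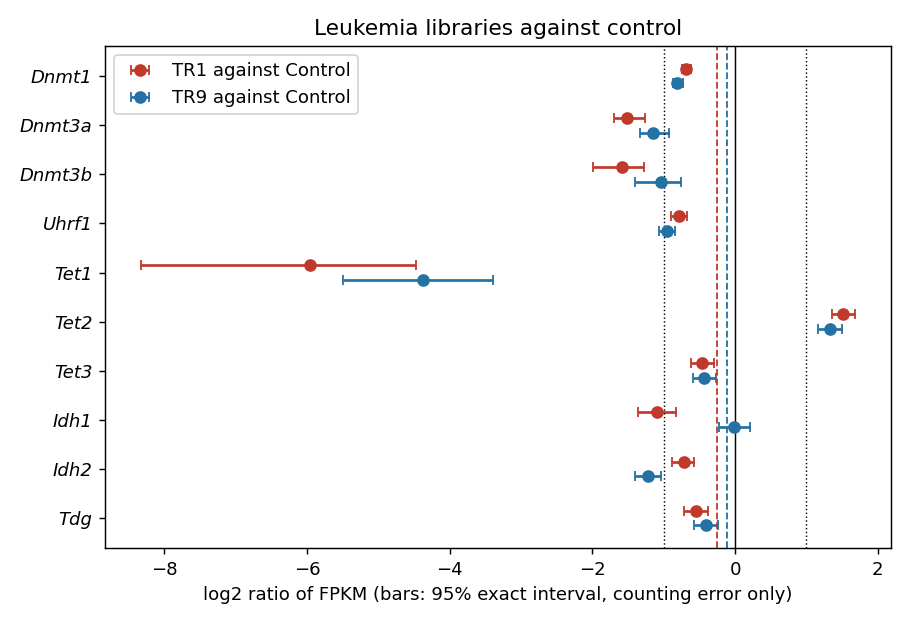
Log2 ratio of FPKM of each gene in TR1 and TR9 against control, with 95% exact intervals from the counts (counting error only). Dotted lines mark the fold of the rule and dashed lines the TMM shift of each library (−0.25 and −0.11). Tet2 lies right of 1 in both lines, and Tet1, Dnmt3a and Dnmt3b lie left of −1.

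The Tet genes split. Tet1 dropped from 195.03 expected counts in control to 3 (TR1) and 9 (TR9). Its level went from 2.49 FPKM to 0.04 and 0.12, with log2 ratios of −5.96 (−8.33 to −4.48) and −4.38 (−5.49 to −3.39). It was already the lowest of the 10 genes in control, and in TR1 it lay above only 1.02% of the listed genes. Tet2, often mutated in human myeloid disease, rose in both lines. Tet2 counts went from 416 in control to 1211 (TR1) and 980 (TR9), or 8.14, 23.27 and 20.49 FPKM, and was 2.86-fold higher in TR1 and 2.52-fold higher in TR9. The log2 ratios of Tet2 were 1.52 (1.36 to 1.68) and 1.33 (1.17 to 1.50), and they ranged from 1.29 to 1.77 and from 1.22 to 1.44 over the scalings tried. Tet3 had 792, 588 and 549 counts. Its log2 ratios of −0.46 (−0.61 to −0.30) and −0.43 (−0.59 to −0.27) were under the fold of the rule, and they were −0.21 and −0.33 with TMM scaling.

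The makeup of the Tet RNA does not depend on how libraries are scaled against each other. Per length, Tet3 made up 55.1% of the summed Tet FPKM in control, Tet2 34.4% and Tet1 10.5%. In TR1 these shares were 29.0% for Tet3, 70.9% for Tet2 and 0.122% for Tet1, and in TR9 31.9%, 67.7% and 0.396%. Summed Tet FPKM was 23.7 in control against 32.8 (TR1) and 30.3 (TR9). Among counts of Tet2 and Tet3, Tet2 took 34.4% in control (95% exact binomial interval 31.8 to 37.2), 67.3% in TR1 (65.1 to 69.5) and 64.1% in TR9 (61.6 to 66.5). The change in the quotient of Tet2 to Tet3 was a log2 ratio of 1.97 (1.74 to 2.20) in TR1 and 1.76 (1.53 to 2.0) in TR9, with adjusted p of 3.11e-70 and 1.28e-53 in Fisher's exact test on the reads of these libraries, adjusted over 9 such tests. The leukemias differed less from each other, by −0.21 (−0.42 to 0.0) in TR9 against TR1 (Fisher's exact test, adjusted p = 0.078).

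The promoter of Tet2 was the richest in CpG among the 16 windows, with 51 CpG in 250 bases, more than 99.9% of all windows held. The window of Tet1 held 15, the windows of the 10 genes a median of 18.5, and all windows a median of 6. Dnmt3a, downregulated in both lines, had windows with 38, 40 and 15 CpG, and 1 window of Uhrf1 held 30. A link between CpG content and the direction of change was not tested. The Tet2 window is shown 5′ to 3′ on the strand of the gene, with each CpG in capitals.
Tet2, chr3:133544391-133544640, minus strand: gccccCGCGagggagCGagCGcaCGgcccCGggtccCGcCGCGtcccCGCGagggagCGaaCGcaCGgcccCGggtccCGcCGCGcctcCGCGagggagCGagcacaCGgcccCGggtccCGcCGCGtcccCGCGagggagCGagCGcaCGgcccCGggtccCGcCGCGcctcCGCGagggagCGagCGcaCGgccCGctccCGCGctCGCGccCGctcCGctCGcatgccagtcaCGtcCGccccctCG

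**Figure D3:**
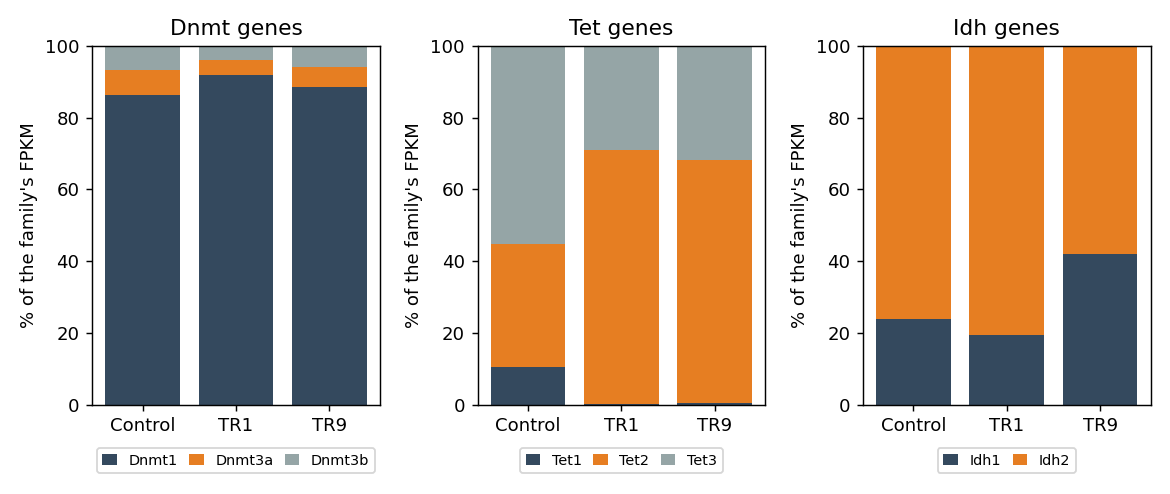
Share of the summed FPKM of the Dnmt, Tet and Idh genes held by each member in the 3 libraries, in percent. Tet2 goes from 34.4% of Tet FPKM in control to 70.9% in TR1 and 67.7% in TR9, and Idh1 holds a larger share of Idh FPKM in TR9 (42.1%) than in control (23.9%) or TR1 (19.5%).

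Among the Dnmt genes, Dnmt1 held 86.3% of the summed FPKM in control, 91.9% in TR1 and 88.5% in TR9. Summed Dnmt FPKM was 175.9 in control against 102.5 (TR1) and 97.9 (TR9).

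The 2 Idh genes separated the leukemia lines. Idh1, the cytosolic NADP-dependent isocitrate dehydrogenase, stood at 371 expected counts in control against 177 (TR1) and 345 (TR9). Its level was 29.77 FPKM in control and 29.58 in TR9 but 13.93 in TR1, so TR1 was the low library. The log2 ratio of Idh1 was −1.10 (−1.36 to −0.83) in TR1 and −0.01 (−0.22 to 0.21) in TR9, and the value in TR9 turned to 0.10 with TMM scaling. Idh2, the mitochondrial enzyme, had 891, 549 and 357 counts, or 94.95, 57.48 and 40.65 FPKM, and TR9 was the low library. Its log2 ratio was −0.72 (−0.88 to −0.57) in TR1, under the fold of the rule, and −1.22 (−1.40 to −1.04) in TR9, where it fell. Per length, Idh2 exceeded Idh1 in every library. Compared directly, Idh1 was higher in TR9 than in TR1 by a log2 ratio of 1.09 (0.82 to 1.35) and was the only one of the 10 genes to pass the rule between the lines, where 4.34% of all genes were higher and 2.31% lower in TR9. This call ended with TMM scaling (0.95; all genes 3.51% and 2.83%). The log2 ratio of Idh2 in TR9 against TR1 was −0.50 (−0.70 to −0.31). The quotient of Idh1 to Idh2 counts was 0.416 in control against 0.322 (TR1) and 0.966 (TR9). Its log2 ratio was 1.21 (0.93 to 1.50) in TR9 against control and 1.58 (1.25 to 1.92) in TR9 against TR1, with adjusted p of 1.17e-17 and 6.01e-22 in Fisher's exact test. For TR1 against control it was −0.37 (−0.68 to −0.06), with an adjusted p of 0.0297 in Fisher's exact test.

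Tdg, the glycosylase of active demethylation, had 683.57 counts in control against 475 (TR1) and 482.43 (TR9), or 39.33, 27.07 and 29.79 FPKM. Its log2 ratios of −0.54 (−0.72 to −0.38) and −0.40 (−0.58 to −0.24) were under the fold of the rule, and −0.29 in both lines with TMM scaling. Fractional counts show that RSEM divided some Tdg reads with other genes, and Tdg overlaps Glt8d2 on the opposite strand, which had 6, 40 and 21 counts.

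**Figure D4:**
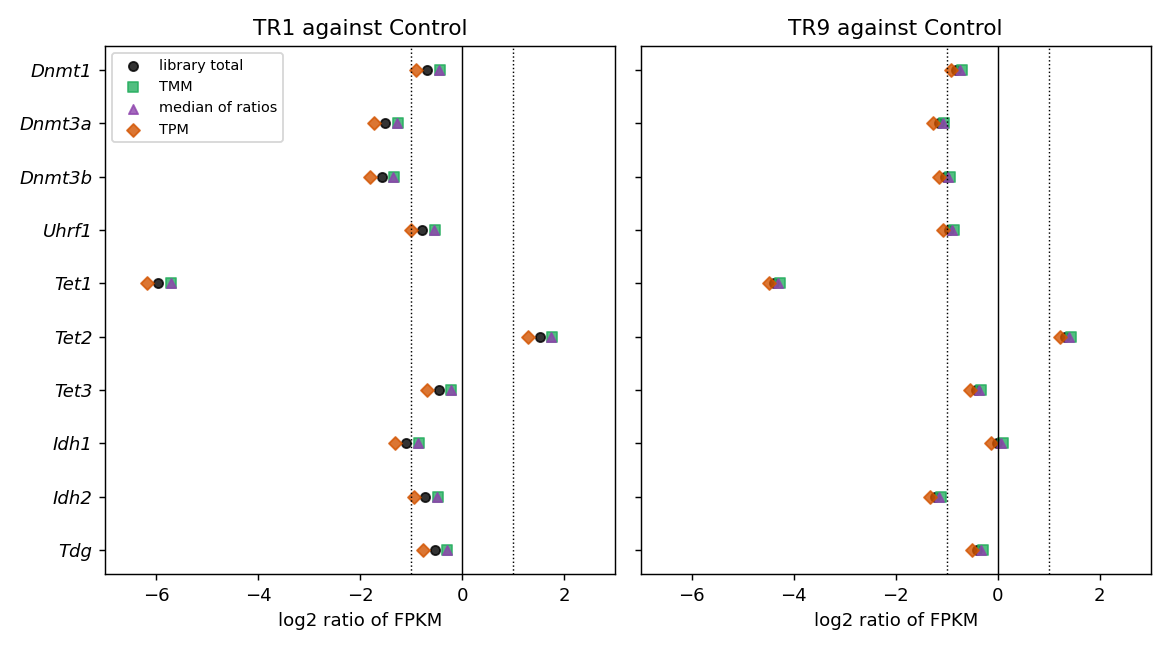
Log2 ratio of FPKM of the 10 genes in TR1 and TR9 against control with libraries scaled by total, TMM, median of ratios or TPM. Dotted lines mark the fold of the rule, and Dnmt3a, Tet1 and Tet2 lie outside them in both lines with each scaling.

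The other genes of these pathways were described from 6 lists with 87 genes listed in a library. Of the 86 tested in TR1, 18 (20.9%) were downregulated and 5 (5.81%) upregulated, and of the 86 tested in TR9, 15 (17.4%) and 6 (6.98%). Over all genes the shares were 13% and 8.09% in TR1, and 10.8% and 9.37% in TR9. The median log2 ratio over these genes was −0.50 in TR1 and −0.48 in TR9. With TMM scaling, 6 (6.98%) were downregulated in TR1, under the 9.77% of all genes, and 10 (11.6%) in TR9, near the 9.22% of all genes, while 5 and 6 were upregulated.

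Of 13 methylation cofactors, Dnmt3l alone passed the rule, so 7.69% were upregulated and 0 downregulated in each line. Over all genes, 8.09% were upregulated and 13% downregulated in TR1, and 9.37% and 10.8% in TR9. Hells, a chromatin remodeler needed for DNA methylation, had 969, 563 and 476 counts, and Uhrf2, a relative of Uhrf1, had 571, 496 and 428, or log2 ratios of −0.23 and −0.32 against control. The list's median was −0.41 in TR1 and −0.49 in TR9. Of 9 readers of methylated CpG, no gene passed the rule in either line, and the median was −0.37 in TR1 and 0.0 in TR9.

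Among 16 genes of demethylation and base excision repair, 3 were upregulated and 1 was downregulated in both lines, with medians of −0.33 and 0.03. Over all genes, 5.67% were upregulated and 8.39% downregulated in both lines. Gadd45b, a stress-induced gene that has been linked to active demethylation, rose from 60 counts to 655 (TR1) and 474 (TR9), by log2 ratios of 3.42 and 3.08. Gadd45g rose from 42 counts to 129 and 79 (1.59 and 1.01), and its TR9 value stood at the fold of the rule. Apobec1, a cytidine deaminase, rose from 81 to 235 and 218 counts (1.52 and 1.53). Gadd45a had 132, 52 and 76 counts and was downregulated in TR1 only by the rule (−1.37 in TR1, −0.70 in TR9), a difference between the lines that did not pass the rule. Parp1, a sensor of DNA breaks, fell from 2619 to 1203 and 995 counts, and its TR1 call ended with TMM scaling (−0.90).

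Of 7 Tet partners listed, Cxxc5, a CXXC zinc finger protein that binds Tet2 and can lower its level, dropped from 131 counts in control to 12 (TR1) but stood at 98 in TR9. It fell in TR1 (log2 ratio −3.47) and had a log2 ratio of −0.32 in TR9, and it was called higher in TR9 than in TR1. Ogt, which binds Tet proteins, had log2 ratios of −0.30 and 0.22, both under the fold of the rule. Dcaf1 was downregulated in TR1 (−1.03) and Hmces in TR9 (−1.0), both at the fold of the rule, and these calls ended with TMM scaling (−0.78 and −0.9). Of the 6 partners tested against control, 2 (33.3%) were downregulated in TR1 and 1 (16.7%) in TR9, against 13% and 10.8% of all genes. None was upregulated. The list's medians were −0.90 and −0.58.

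The list around 2-oxoglutarate depended on scaling. Of its 25 genes, 8 (32%) were downregulated and 1 (4%) was upregulated in TR1, and 5 (20%) and 2 (8%) in TR9. Over all genes the shares were 13% and 8.09% in TR1, and 10.8% and 9.37% in TR9. The medians were −0.75 and −0.58 against −0.29 and −0.12 over all genes. With TMM scaling, 2 of the 25 (8.0%) were downregulated in each line, under the 9.77% and 9.22% of all genes. Idh3a, a subunit of the NAD-dependent isocitrate dehydrogenase, fell from 1174 counts to 449 (TR1) and 483 (TR9). Fh1, fumarate hydratase, fell from 543 to 209 and 238, and its TR9 call ended with TMM scaling (−0.99). Adhfe1, a hydroxyacid-oxoacid transhydrogenase that makes D-2-hydroxyglutarate, rose from 1 count to 94 and 79, with log2 ratios of 6.49 and 6.36 (95% intervals from the counts 4.02 to 11.85 and 3.88 to 11.72), and it overlaps Gm6161 on the same strand and 2610203C22Rik on the opposite one. D2hgdh, which removes D-2-hydroxyglutarate, had 127, 130 and 127 counts.

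The methyl donor cycle supplies S-adenosylmethionine, the methyl source of the Dnmt enzymes. Of its 17 listed genes, 6 (35.3%) were downregulated in TR1 and 8 (47.1%) in TR9, against 13% and 10.8% of all genes. None was upregulated. The medians were −0.65 and −0.81, against −0.29 and −0.12 over all genes. With TMM scaling 2 (11.8%) were downregulated in TR1, near the 9.77% of all genes, and 7 (41.2%) in TR9, against 9.22% of all genes. Mthfd1, of folate metabolism, fell from 2542 counts to 588 and 449, by log2 ratios of −2.14 and −2.41. Mtap, which salvages methylthioadenosine, fell from 285 to 69 and 17 counts (−2.07 and −3.97) and was lower in TR9 than in TR1. Amd1, which draws S-adenosylmethionine into polyamine synthesis, fell from 2027.61 to 871 and 639.33 counts, and its TR1 call ended with TMM scaling (−0.99).

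**Figure D5:**
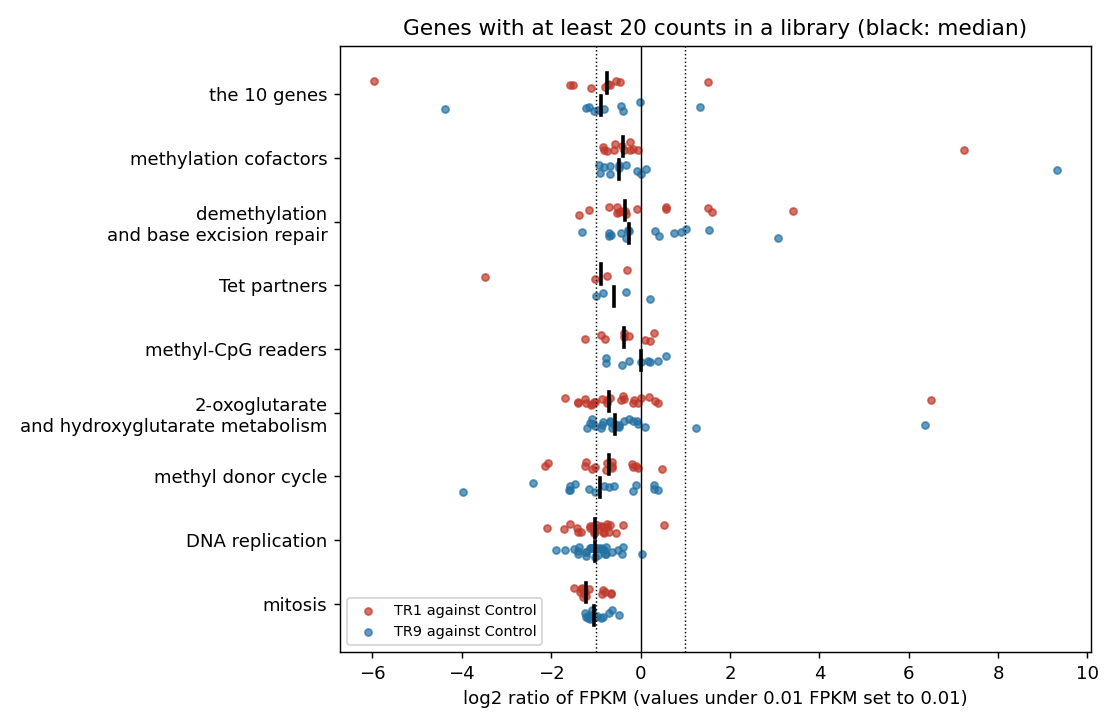
Log2 ratio of FPKM in TR1 and TR9 against control for genes with at least 20 expected counts in a library, by list, with values under 0.01 FPKM set to 0.01. Black bars are medians. The median of each list lies at or left of 0 in both lines, and Dnmt3l, Gadd45b and Adhfe1 are the points farthest right in their lists.

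Likeness of pattern was taken as the distance between the pairs of log2 ratios in TR1 and TR9, over the 121 genes of the pathway, replication and mitosis lists with at least 20 counts. Nearest to Dnmt3a were Top2a (distance 0.03), a topoisomerase of dividing cells, and Idh3a (0.10). Nearest to Dnmt3b were Top2a (0.16) and Fh1 (0.19). Apobec1 (0.20) and Gadd45g (0.33) were nearest to Tet2. None of the 121 genes came near Tet1, for which the smallest distances were 3.91 (Mtap) and 4.30 (Mthfd1). Cell marker genes were not in this pool. Vwf, for example, had log2 ratios of −5.71 and −5.21, beside −5.96 and −4.38 for Tet1. These distances rest on 3 libraries that share 1 control. They also leave out counting error, which is wider than the smallest of them (Dnmt3a in TR1: −1.69 to −1.26). Which gene is nearest is thus not settled where distances are small.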

How the data were processed

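Per the paper's methods, the authors filtered reads, used BWA and Bowtie for mapping and RSEM for quantification, and the submitters' processing notes name the build mm9. They deposited, per gene and library, the expected count, which is not normalized, and the FPKM, which RSEM scales for length and library total. The mean transcript length in the same files is in bases. Software versions are not given in the sources used here. Genes not listed in a library were taken as 0. Of 16742 gene IDs, 16698 matched the RefSeq table of GRCm38.p6, used for names.

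Rounded counts entered an exact Poisson test, conditional on each gene's total (scipy 1.17.1), and p-values were adjusted after Benjamini and Hochberg over genes listed in either library, the kind of test and the thresholds that the paper's methods give. Log2 ratios used FPKM, where anything under 0.01 was set to 0.01. Shares have exact (Clopper-Pearson) 95% intervals. Depth was 5129662 to 5571409 counts per library, so intervals of genes with few counts are wide.

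The 10 genes and the lists were chosen with earlier results of these data known. Named genes were the 10 members, the 3 genes per pathway or cell cycle list that moved most on average while called in both lines, the 2 nearest in pattern to each member called in both, and the highest marker of each cell list. The text reports some of these. Genes named outside this rule (such as Hells, Uhrf2, Gadd45a, Parp1, Cxxc5, Ogt, D2hgdh, Aire, Glt8d2, Rara, Vwf and markers at 0) were chosen after their values were seen. Alternatives were other floors, filters, thresholds, TMM (edgeR 4.0.16) and median of ratios (DESeq2 1.42.0) scaling, TPM scaling, and the exact test of edgeR at a biological coefficient of variation that was assumed. Scripts were tested on simulated data. The B cell marker list is not reported here.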

Additional observations from a re-analysis of the deposited data

Results flagged for a closer look

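Idh1 differed between the leukemia lines, with a log2 ratio of 1.09 in TR9 against TR1 in the direct test on reads (177 expected counts in TR1 and 345 in TR9). It was lower than control in TR1 alone by the rule. The call between the lines ended with TMM (0.95) and median of ratios (0.97) scaling. The quotient of Idh1 to Idh2, which no scaling between libraries can move, was 0.322 in TR1 and 0.966 in TR9. It holds the same Idh1 counts and also the lower Idh2 of TR9, so it is no separate check on Idh1. Each line is 1 library, so the difference has no replicate check.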

How the results depend on the processing

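Tet1 was downregulated in both lines under each of the 11 alternatives tried, whereas the other calls depended on the fold or on an assumed spread. Of the 10 genes, 1 (Tet1) was called in TR1 and 1 in TR9, and 0 in TR9 against TR1, at an absolute log2 ratio of at least 2 and in the exact test of edgeR at a biological coefficient of variation that was assumed as 0.2 or 0.4. Between the lines, 0 genes were called with TMM or median of ratios scaling, against 1 (Idh1) with scaling by library total. Uhrf1 was called in both lines with TPM scaling. Of 328 log2 ratios of single genes under the alternatives, 288 kept their direction and call, 34 lost the call, 2 gained it and 4 changed sign. The changes of sign were Idh1 in TR9 against control (0.10 with TMM and 0.07 with median of ratios) and Tet3 in TR9 against TR1 (−0.11 and −0.10). These values lay near 0 in each setting.

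Pathway genes called in TR1 numbered 23 by the rule, 11 with TMM scaling, 13 with median of ratios, 5 and 1 with the assumed variation of 0.2 and 0.4, and 6 at the higher fold. In TR9 they numbered 21, and 5, 2 and 5 with the assumed variations and the higher fold, and between the lines 4, and 1, 0 and 2. Shares depended on whether counts or FPKM were used, since FPKM corrects for length. Idh2 took 70.6%, 75.6% and 50.9% of Idh counts in control, TR1 and TR9 but 76.1%, 80.5% and 57.9% of FPKM. Dnmt3b took 29.4%, 27.2% and 30.1% of Dnmt3 counts but 48.9%, 47.6% and 50.8% of FPKM, and Tet2 34.4%, 67.3% and 64.1% of Tet2 and Tet3 counts but 38.4%, 71.0% and 67.9% of FPKM. With 1 library per condition no replicate could be left out. No paired analysis was possible because each group has 1 sample and the groups share only 1 replicate number. At these depths, genes with few counts, such as Tet1 in the leukemias, have intervals several log2 units wide.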
